A study of Mus musculus with 2 samples.

Results

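The 55 collagen and laminin genes were taken from the 22383 features of the count matrices by symbol alone, as every symbol made of Col, a number, a and a number (44 genes) or of Lam, one of the letters a, b or c and a number (11 genes). UMIs, the molecular tags that mark 1 captured transcript each, were summed per library over classes of cell barcodes set by the hormone transcript with the largest count.

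Collagens are triple helices built from α chains, and each chain has a gene of its own. Fibrillar collagens form the fibers of interstitial matrix and are made mainly by fibroblasts, whereas collagen IV forms the sheet of basement membranes and collagen VI makes beaded filaments that link both. Laminins are cross-shaped trimers of 1 α, 1 β and 1 γ chain and are the other main polymer of basement membranes. Mouse islet endocrine cells rest on the basement membrane of the islet capillaries, and β-cells are regarded as depending on endothelial cells for much of it.

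The study asked which transcripts change when β-cells lack the transcription co-factors TBL1X and TBL1XR1. Islets of 5-week-old C57BL/6N mice were profiled by droplet single-cell RNA-sequencing of transcript 3′ ends, with 150 islets pooled from 4 mice per group. The 2 groups were labelled wildtype (Cre-negative littermates) and TBL/RBKO (loxP-flanked Tbl1x and Tbl1xr1 with Cre recombinase knocked into the Ins1 locus, which directs Cre to β-cells). Islets of both groups had been isolated with collagenase P, cultured overnight in medium with serum and dissociated with TrypLE. Each group is 1 library of pooled animals, so no difference has a replicate check and no test was run. All intervals are 95% intervals that cover counting error only.

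The libraries held 7067 and 5833 barcodes, wildtype first, of which 4961 and 4462 had over 1000 genes and under 10% mitochondrial UMIs, with a median of 38976 and 25448 UMIs. The libraries shared 14 barcode sequences. Cre recombinase UMIs were listed at 0 in the β class of the wildtype library, against 3116 in that of the library labelled TBL/RBKO, 47.3 CPM. The targeted genes went against the label. Tbl1x counts in the β class gave 209 CPM (206 to 212) for wildtype and 539 CPM (533 to 544) for the other library. Those of Tbl1xr1 gave 43.2 CPM (41.8 to 44.6) for wildtype and 197 CPM (194 to 201) for the other. A 3′ count outside the deleted exons cannot check a deletion, and where these tags lie relative to the deletions was not analysed here. That library is therefore called "the library labelled TBL/RBKO". Throughout, CPM is the number of UMIs per 1000000 UMIs other than those of Ins1, Ins2, Gcg, Sst, Ppy and the mitochondrial genes. CPM of different genes are compared without scaling by length, and any effect of gene length on UMI counts was not tested.

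The β class, in which insulin was the largest hormone count, held 3010 wildtype barcodes and 1392 of the library labelled TBL/RBKO. The α class held 1351 and 1642, the δ class 230 and 383, the PP class 265 and 503, and the non-hormone class, with under 100 UMIs of each hormone per 10000, 105 and 542. Clustering without the collagen, laminin and hormone genes gave 24 clusters, 5 of which were named from markers. They were a stromal-like cluster (42 and 146 barcodes, led by genes that included Mgp, Timp1 and Sparc), an endothelial-like cluster (70 and 53, led by Esm1, Emcn, Flt1, Kdr and Plvap), a macrophage-like cluster (79 and 86), a ductal-like cluster (2 and 33) and a B-cell-like cluster (0 and 136). The endothelial-like cluster also held markers of mural cells, the pericytes and smooth muscle cells of vessels: the 7 markers, Rgs5 and Cspg4 among them, summed to 655 CPM in its wildtype barcodes and 424 CPM in the others. The fibroblast markers summed to 8.17 and 145 CPM there, with Pdgfra, Dcn, Lum and Dpt at 0 in the wildtype barcodes. Of the wildtype stromal-like barcodes 19 of 42 carried enough insulin UMIs to fall in the β class. So did 24 of 70 endothelial-like and 38 of 79 macrophage-like ones. In the library labelled TBL/RBKO these were 13 of 146, 6 of 53 and 8 of 86. Non-endocrine clusters thus made up 2.72% and 2.30% of the β class. Calls between libraries were made with these barcodes and then without them, and levels set side by side across classes, shares of barcodes, insulin bands and chain ratios are without them. All clusters without a name are called endocrine below. One of them, with 18 and 5 barcodes, 17 of them in the β class, was led by Vip, Npy, Stmn2, Sncg and Tac1. Its cell type was not tested.

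Collagen and laminin transcripts were concentrated in few cells. The stromal-like cluster held 0.847% of the wildtype barcodes but 16.4% of the 50329 collagen and laminin UMIs of that library, and the endothelial-like cluster held 1.41% of the barcodes and 31.8% of these UMIs. In the library labelled TBL/RBKO the stromal-like cluster held 3.27% of the barcodes and 64.2% of 82123 such UMIs, and the endothelial-like cluster 1.19% and 7.81%. Summed over all 55 genes the level per cell type was nearly the same in both libraries for stromal-like cells, 10117 and 10056 CPM, and was 7685 and 5964 CPM in endothelial-like cells. After removal of the non-endocrine clusters the sum was 224 and 142 CPM in the β class, 257 and 252 CPM in the α class, 188 and 268 CPM in the δ class and 101 and 133 CPM in the PP class. Macrophage-like cells, which are not known as main producers of these chains, gave 56.2 and 75.3 CPM.

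**Figure D1:**
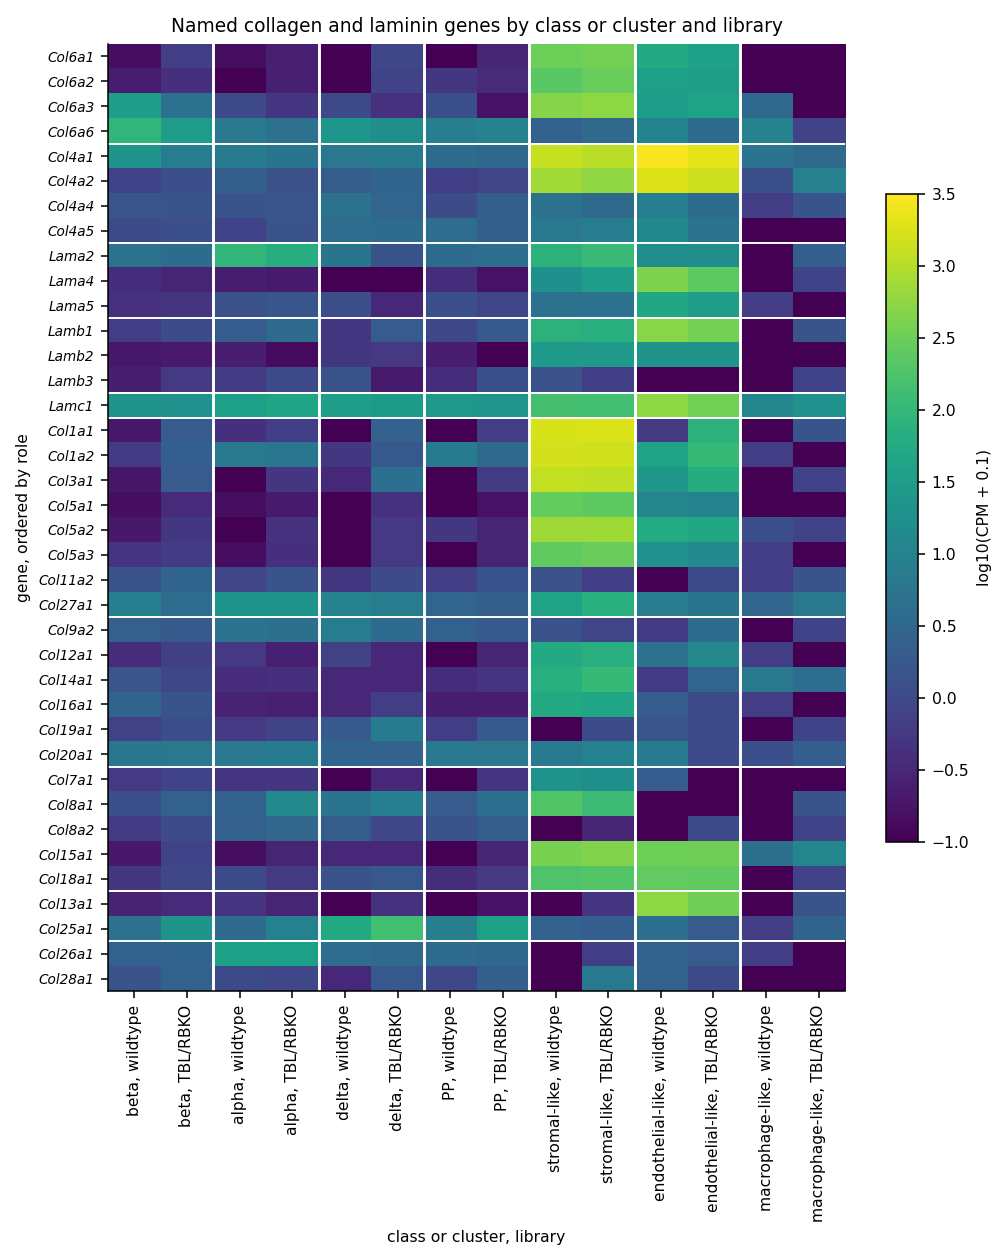
Levels of the named collagen and laminin genes with at least 100 UMIs in 1 hormone class or non-endocrine cluster, as log10(CPM + 0.1) in color, by class (non-endocrine clusters left out) or cluster and library, with genes ordered by role. Col1a1, Col1a2, Col3a1, Col4a1 and Col4a2 are brightest in stromal-like or endothelial-like columns, and among the hormone classes Col6a6 is brightest in the β columns (92.3 and 29.2 CPM), Lama2 in the α columns (94.6 and 64.7 CPM) and Col25a1 in the δ columns (53.6 and 136 CPM).

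Each hormone class had leading collagen or laminin genes of its own. In the wildtype β class these were Col6a6 at 92.3 CPM (7726 UMIs), Col6a3 at 32.8 CPM, Lamc1 at 21.2 CPM and Col4a1 at 21 CPM, with non-endocrine clusters left out. In the α class they were Lama2 at 94.6 CPM, Col26a1 at 36.5 CPM, Lamc1 at 34.3 CPM and Col27a1 at 21 CPM. In the δ class they were Col25a1 at 53.6 CPM, Lamc1 at 31.3 CPM and Col6a6 at 23.4 CPM. In the PP class the highest level was that of Lamc1, 24.5 CPM, and Col6a6 stood at 8.30 CPM. Lamc1, which encodes the γ1 chain found in most laminins, was thus among the leading genes of all 4 hormone classes, and it stood at 18.7, 41.9, 28.4 and 22.5 CPM in the β, α, δ and PP classes of the library labelled TBL/RBKO.

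The share of barcodes with a UMI was compared after each barcode had been thinned to 10000 UMIs, because median depth differed: in the wildtype library it was 52706 UMIs in the β class, 19305 in the α class, 20845 in the δ class and 21276 in macrophage-like cells, and in the β class of the other library 66151. Col6a6 was found in 32.5% of wildtype β-class barcodes (interval 30.7 to 34.2) and in 2.78% of wildtype macrophage-like ones (0.338 to 9.68). Lama2 was found in 19.0% (16.8 to 21.4) of wildtype α-class barcodes, in 0.799% of β-class ones and in none of 72 macrophage-like ones, which allows up to 4.99%. Col25a1 was found in 24.8% (19.2 to 31.1) of wildtype δ-class barcodes, 1.38% of β-class ones and, again, in none of the macrophage-like ones. Before thinning the first of these shares, Col6a6 in the β class, was 74.2%. That of Lama2 was 24.7% in the wildtype α class and 3.48% in the wildtype β class. Thinning left out barcodes: 173 of 2928 wildtype β-class, 153 of 1342 α-class, 11 of 229 δ-class and 7 of 79 macrophage-like ones. In the library labelled TBL/RBKO it left out 45 of 1360, 251 of 1631, 17 of 378 and 23 of 86. Thinned shares do not cover these barcodes.

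Between libraries, a gene was called different at a ratio of 2-fold or more with at least 30 UMIs over both libraries. In the β class 46 of the 55 genes had that many UMIs, of which 16 were called higher and 2 lower in the library labelled TBL/RBKO. Of all 14619 features with enough UMIs 7.11% were called higher and 5.90% lower, and the median log2 ratio was 0.39 over the 46 genes and −0.17 over all features. The 2 lower genes were Col6a6 and Col6a3. The 16 higher ones were 7 of the 9 fibrillar genes with enough UMIs, Col25a1, Col6a1, Col6a2, Col8a1, Col8a2, Col12a1, Col15a1, Col18a1 and Lamb3. The split rested on which barcodes were kept: under the narrower range of detected genes that the study applied, over 2500 and under 6000, 6 were called higher and 11 lower. The shares of all features under that range are not given here, so these 2 counts have no background beside them. With the non-endocrine clusters left out 12 of 42 were called higher and 5 lower, the latter joined by Col4a1, Col27a1 and Col16a1, beside 7.29% higher and 4.91% lower of all 14222 features in the same barcodes. The medians were then 0.46 and −0.16.

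**Figure D2:**
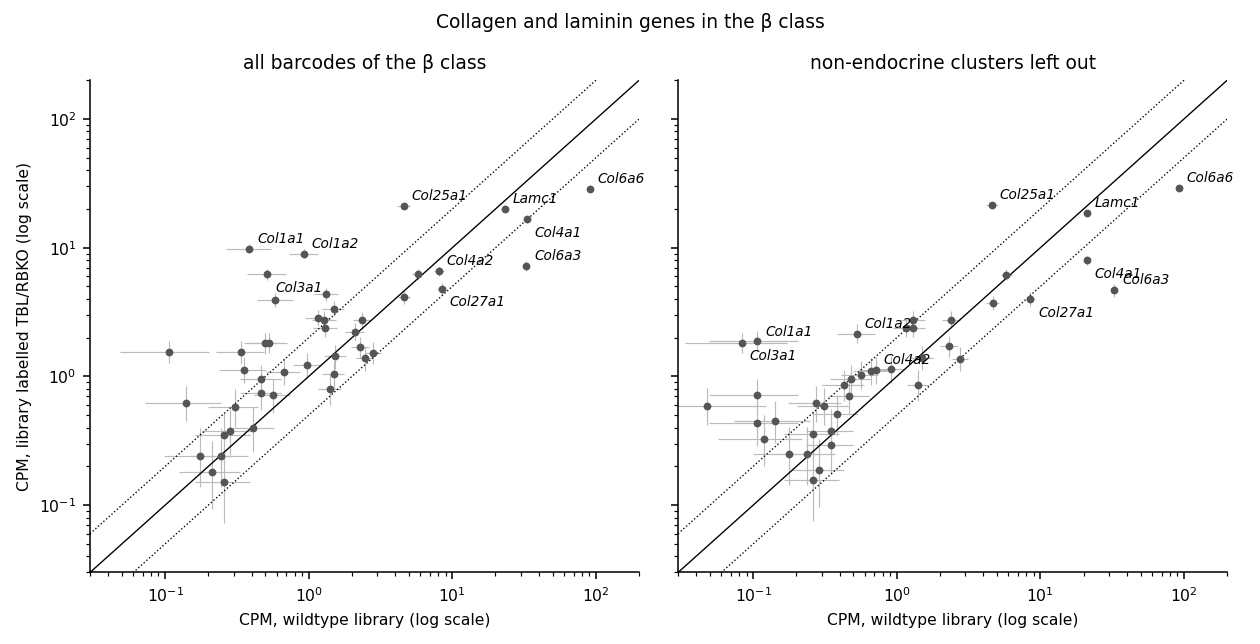
CPM of collagen and laminin genes with at least 30 UMIs over both libraries in the β class, wildtype on the x axis and the library labelled TBL/RBKO on the y axis, both on log scales. Bars are 95% Poisson intervals, the solid line marks equal levels and the dotted lines 2-fold, with all barcodes on the left and without the non-endocrine clusters on the right. Col6a6 and Col6a3 lie below the dotted band and Col25a1 above it in both panels, while Col1a1 moves from 9.86 to 1.87 CPM on the y axis.

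Col6a6 and Col6a3 encode the α6 and α3 chains of collagen VI. Col6a6 gave 7757 UMIs in the wildtype β class, 91.0 CPM, and 1887 UMIs in the library labelled TBL/RBKO, 28.7 CPM. The log2 ratio was −1.67 (interval −1.74 to −1.59), a 3.18-fold lower level. Col6a3 stood at 32.7 CPM (2788 UMIs) and 7.24 CPM (477 UMIs), with a log2 ratio of −2.18 (−2.32 to −2.03). In thinned barcodes Col6a6 was found in 32.5% and 13.9% (12.1 to 15.9), and Col6a3 in 12.4% (11.2 to 13.7) and 2.81% (1.99 to 3.86). The other chains that make the classical collagen VI trimer with α3, Col6a1 and Col6a2, were almost absent from endocrine cells: the wildtype β class without non-endocrine clusters held 4 and 10 UMIs of them beside 2742 of Col6a3. Stromal-like cells carried all 3, with Col6a3 at 476 and 536 CPM, Col6a1 at 318 and 369 CPM and Col6a2 at 219 and 299 CPM, so that 1.5 and 1.45 Col6a3 UMIs came per Col6a1 UMI, against 686 (267 to 2518) in the wildtype β class. The endocrine β class of the library labelled TBL/RBKO was less one-sided. It held 173 Col6a3 and 3 Col6a1 UMIs in clusters shared with the wildtype library, and 128 and 35 in clusters almost only of its own.

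Col6a6 was instead nearly absent from stromal-like cells, with 2 and 18 UMIs. Beside 92.3 CPM in the wildtype β class it stood at 23.4 CPM in the δ class, 8.30 CPM in the PP class and 6.11 CPM in the α class. In those classes of the library labelled TBL/RBKO it stood at 17.2, 9.96 and 4.74 CPM, each less than 2-fold from the wildtype value. Its neighbours of the same subfamily, Col6a4 and Col6a5, start 268429 and 132297 bases away on the same strand. Both were named after their values were seen, and each gave 22 UMIs in the same wildtype barcodes, against 7726 of Col6a6. Col6a6 lies on chromosome 9 (105564724 to 105705561, minus strand, GRCm39) and its last 133 bases overlap the end of Pik3r4 on the other strand. Pik3r4 stood at 27.8 and 26.2 CPM in the β class, a log2 ratio of −0.09.

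The upstream sequences of the 3 genes that differed in the β class with the most UMIs, Col6a6, Col6a3 and Col25a1, were read from GRCm39 as the 250 bases before the start of the canonical GENCODE transcript, 5′ to 3′ on the strand of the gene. Capitals mark GC boxes (GGGCGG on either strand), and lower case the rest. The regions are chr9:105705562-105705811 on the minus strand for Col6a6, chr1:90771781-90772030 on the minus strand for Col6a3 and chr3:129974290-129974539 on the plus strand for Col25a1, and none of them overlaps an annotated exon.
Col6a6: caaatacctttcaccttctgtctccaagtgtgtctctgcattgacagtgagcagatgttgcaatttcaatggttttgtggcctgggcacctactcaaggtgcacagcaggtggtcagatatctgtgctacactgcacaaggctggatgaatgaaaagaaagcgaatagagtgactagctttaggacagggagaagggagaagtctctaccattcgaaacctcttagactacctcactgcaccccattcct
Col6a3: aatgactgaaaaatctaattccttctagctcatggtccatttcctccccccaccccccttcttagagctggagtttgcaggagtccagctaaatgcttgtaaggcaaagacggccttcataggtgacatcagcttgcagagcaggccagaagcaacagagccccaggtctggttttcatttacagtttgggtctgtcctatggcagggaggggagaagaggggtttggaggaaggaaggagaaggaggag
Col25a1: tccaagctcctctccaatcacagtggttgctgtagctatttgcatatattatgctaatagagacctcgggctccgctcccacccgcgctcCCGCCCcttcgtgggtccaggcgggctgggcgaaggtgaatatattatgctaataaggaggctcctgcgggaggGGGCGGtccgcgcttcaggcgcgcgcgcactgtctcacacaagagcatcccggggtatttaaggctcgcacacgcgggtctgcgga

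Col25a1 held 2 GC boxes, and Col6a6 and Col6a3 none. GC boxes occurred in 36.3% of the 21770 such regions of protein-coding genes and in 27 of the 55 collagen and laminin regions. The homeodomain core TAATTA occurred in 5.18% of all regions and in 3 of the 55, the Maf half-site TGCTGAC in 3.24% and in 0 of the 55, and the TATA box TATAAA in 11.9% and in 8 of the 55, each counted on both strands. None of these 3 was found in the printed regions. GC content was 47.2% for Col6a6 and 51.2% for Col6a3, beside a median of 58.0% for the 55 and 53.2% for all regions.

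The β class spans a wide range of insulin. It was split by insulin UMIs per 10000 into 100 to 1000, 1000 to 3000 and 3000 or more, with 183, 158 and 2587 wildtype barcodes and 246, 569 and 545 of the library labelled TBL/RBKO. Col6a6 stood at 64.5, 70.1 and 94.9 CPM in the wildtype bands and at 19.5, 26.9 and 37.5 CPM in the other library, so it was lower by more than 2-fold in each band. The barcodes of a band were not matched for depth or cluster. In the lowest band the wildtype value rests on 88 Col6a6 UMIs in 183 barcodes, and the other on 224 UMIs in 246. Col6a3 stood at 0, 6.36 and 35.8 CPM and at 0.435, 0.783 and 12.4 CPM. Both genes were thus highest where insulin was highest, in either library.

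Lama2 ran the other way in the wildtype library, at 113, 13.3 and 1.87 CPM, and stood at 3.65, 4.67 and 2.45 CPM in the library labelled TBL/RBKO. Of the wildtype β class 113 barcodes belonged to a cluster of few UMIs (median 8398) that also held 142 wildtype α-class barcodes. Lama2 stood at 214 CPM in the former and at 179 CPM in the latter. The lowest insulin band of the wildtype β class thus carried the leading laminin of the α class, and the part of barcodes with RNA of both cell types was not tested.

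**Figure D3:**
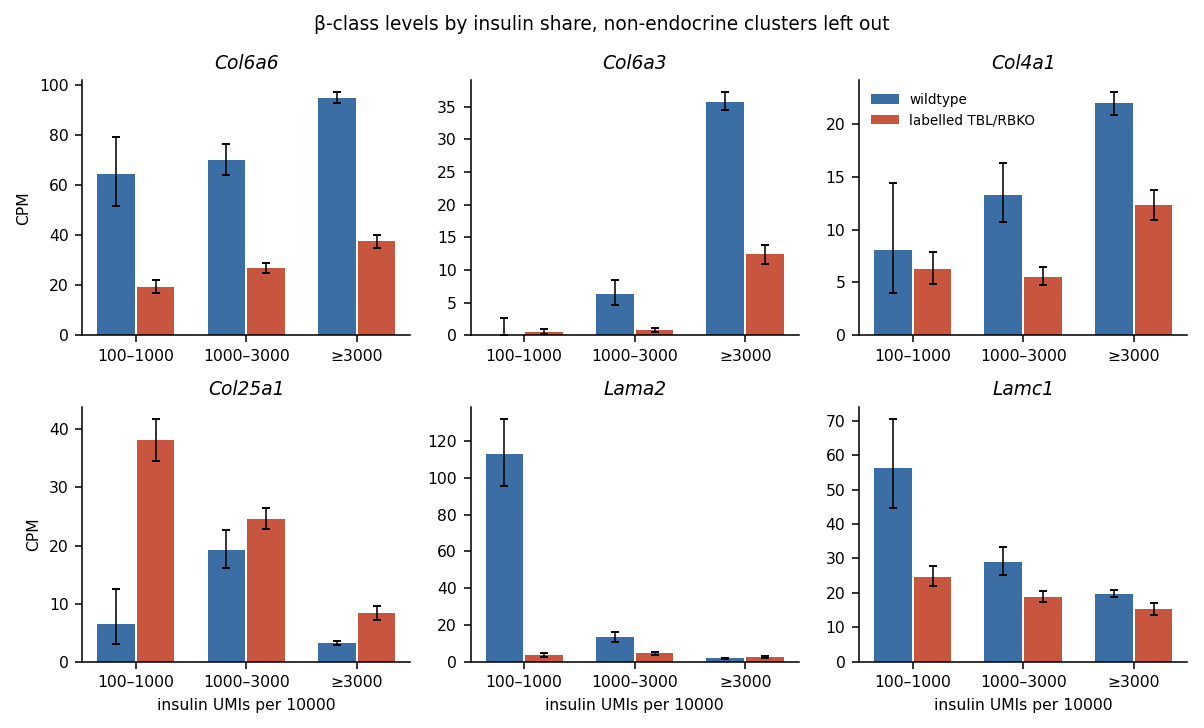
CPM of 6 genes in β-class barcodes split by insulin UMIs per 10000, non-endocrine clusters left out, with bars for the wildtype library (blue) and the library labelled TBL/RBKO (red) and 95% Poisson intervals. Col6a6 is lower in the red bars of every band (19.5 to 37.5 against 64.5 to 94.9 CPM), Col6a3 is highest at 3000 or more insulin UMIs, and Lama2 is high in the lowest wildtype band, at 113 CPM.

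Of the 1360 endocrine β-class barcodes of the library labelled TBL/RBKO 1104 lay in 3 clusters that held only 4 wildtype β-class barcodes, and 256 lay in clusters shared with the wildtype library. Col6a6 stood at 51.3 CPM (46.6 to 56.3) in the shared clusters and at 25.8 CPM (24.5 to 27.2) in the clusters of that library alone, beside 92.4 CPM (90.3 to 94.5) in the wildtype barcodes. Col6a3 stood at 20.1 CPM (17.2 to 23.4) and 2.30 CPM (1.92 to 2.74), beside 32.8 CPM. Within the 3 shared clusters with the most wildtype β-class barcodes the libraries were closer. Col6a6 was at 94.4 and 91.1 CPM in the first, 147 and 103 CPM in the second and 61.7 and 53.7 CPM in the third, with 36 to 50 barcodes of the library labelled TBL/RBKO in each. Col6a3 was at 45.0 and 37.1, 29.7 and 43.4, and 43.8 and 35.3 CPM. Over the endocrine barcodes of shared clusters alone the log2 ratio was −0.85 for Col6a6 and −0.70 for Col6a3, so that neither was called lower there. With the non-endocrine barcodes kept beside them the ratios were −1.05 and 0.05, and of the 477 Col6a3 UMIs of the library labelled TBL/RBKO in the β class 176 lay in non-endocrine clusters.

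**Figure D4:**
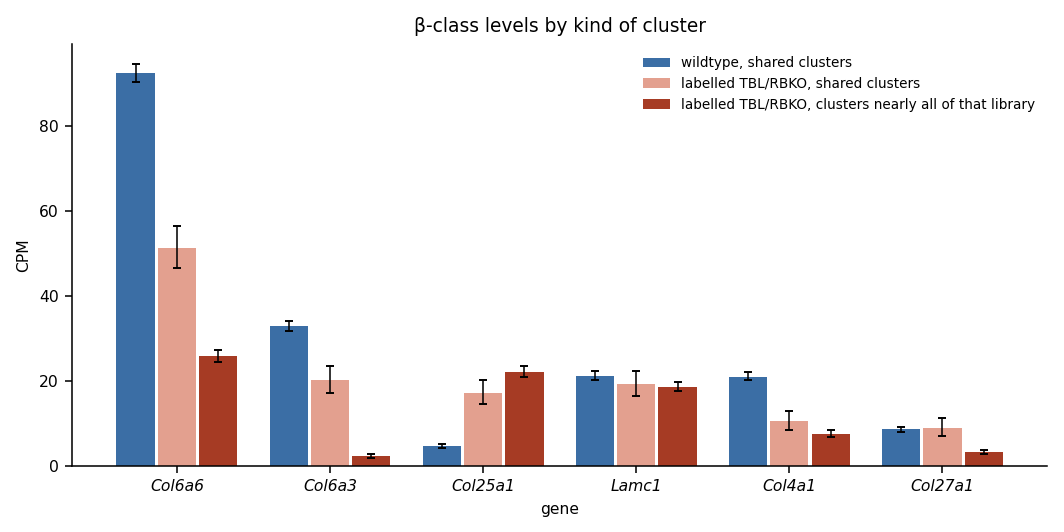
CPM of 6 genes in endocrine β-class barcodes of the wildtype library (blue), of the library labelled TBL/RBKO in clusters shared with the wildtype (light red) and in the 3 clusters made almost only of that library (dark red), with 95% Poisson intervals. Col6a6 and Col6a3 step down from blue to dark red (92.4, 51.3 and 25.8 CPM, and 32.8, 20.1 and 2.30 CPM), while Lamc1 stays between 18.6 and 21.2 CPM.

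Collagen IV was represented by Col4a1 and Col4a2, the α1 and α2 chains that form the common basement membrane trimer. Both were highest in endothelial-like cells, Col4a1 at 2810 and 2096 CPM and Col4a2 at 1815 and 1435 CPM, and next in stromal-like cells, at 1269 and 1081 CPM and at 744 and 557 CPM. In the β class Col4a1 stood at 33.2 and 16.7 CPM, a log2 ratio of −0.99 (−1.09 to −0.89), just inside the 2-fold limit. Without the non-endocrine clusters it stood at 21 and 7.98 CPM, a log2 ratio of −1.40 (−1.54 to −1.25), and Col4a2 at 0.717 and 1.12 CPM. The wildtype β class thus held 29.3 Col4a1 UMIs per Col4a2 UMI (22.7 to 38.6), and that of the library labelled TBL/RBKO 7.11 (5.55 to 9.23). The ratio was 1.55 and 1.46 in endothelial-like cells, 1.71 and 1.94 in stromal-like cells and 3.04 and 4.39 in the α class. The genes lie head to head on chromosome 8, with starts 355 bases apart on opposite strands. The remaining collagen IV chains were low in endocrine cells, with Col4a4 at 1.5 and 1.40 CPM and Col4a5 at 0.908 and 1.14 CPM in the β class without those clusters.

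**Figure D5:**
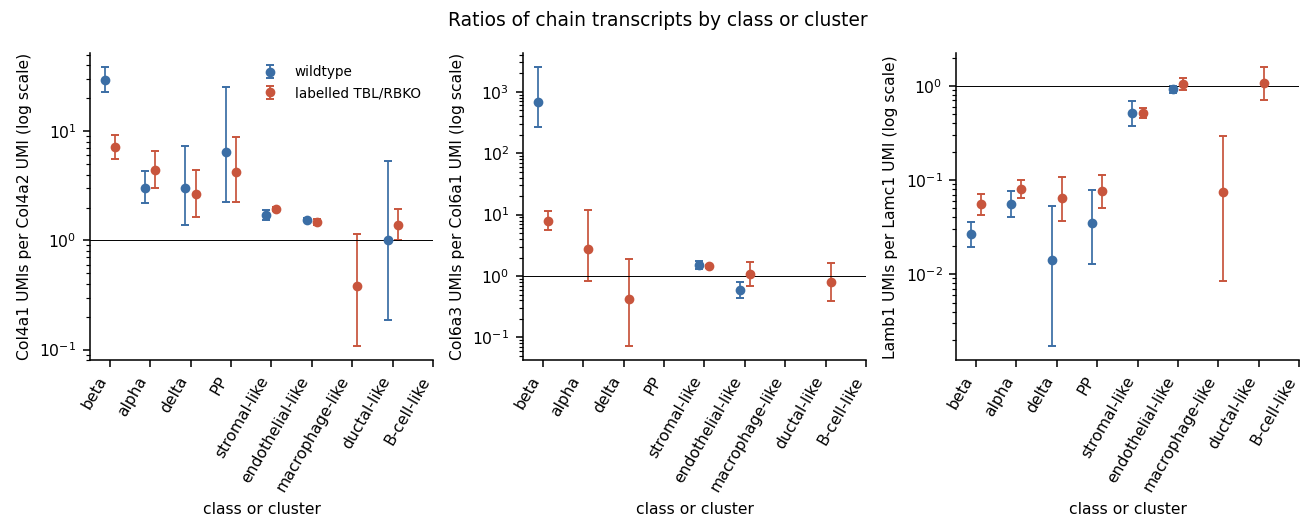
UMIs of 1 chain per UMI of its partner chain by class (non-endocrine clusters left out) or cluster, on log scales, for Col4a1 per Col4a2, Col6a3 per Col6a1 and Lamb1 per Lamc1, wildtype in blue and the library labelled TBL/RBKO in red, with 95% exact intervals. Points are missing where a count was too low. The β class stands far above 1 for Col4a1 per Col4a2 (29.3 and 7.11) and far below 1 for Lamb1 per Lamc1 (0.0265 and 0.0550), while stromal-like and endothelial-like cells lie nearer to 1.

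Among the laminin α chains, Lama2, whose product is the laminin α2 chain of muscle and nerve, led in the α class at 93.9 CPM (2068 UMIs) and 64.6 CPM (1753 UMIs), a log2 ratio of −0.54 (−0.63 to −0.45). Its level differed among the α-class clusters. In the 2 largest it stood at 67.5 and 136 CPM in the wildtype library and at 51.1 and 95.1 CPM in the other, and in another, with 60 and 344 barcodes, at 29.5 and 17.3 CPM. Lama4, the α4 chain of vessel basement membranes, was found mainly in endothelial-like cells, at 424 and 229 CPM, where Lama5 stood at 48.1 and 31.6 CPM. Of the β chains Lamb1 reached 496 and 361 CPM in endothelial-like cells and 0.561 and 1.03 CPM in the β class, and Lamb2 stayed under 30 CPM in every class and cluster. The wildtype β class therefore held 0.0265 Lamb1 UMIs per Lamc1 UMI (0.0194 to 0.0354), against 0.918 in wildtype endothelial-like cells. Lamb3, the laminin β3 chain, gave 12 and 29 UMIs in the β class without the non-endocrine clusters.

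Col25a1 encodes a transmembrane collagen that is shed from the cell surface and is known from amyloid plaques. It was called higher in the library labelled TBL/RBKO in all 4 hormone classes. It stood in the β class at 4.58 CPM (390 UMIs) and 21 CPM (1384 UMIs), a log2 ratio of 2.20 (2.04 to 2.37). In the δ class it stood at 53.3 CPM (240 UMIs) and 133 CPM (1183 UMIs), a log2 ratio of 1.32 (1.12 to 1.53). Thinned δ-class barcodes with a Col25a1 UMI made up 24.8% (19.2 to 31.1) and 43.2% (38.0 to 48.5). In the main δ-class cluster, with 189 and 296 barcodes, the level was 62.4 CPM (54.5 to 71.2) and 171 CPM (161 to 183).

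In the PP class Col25a1 stood at 8.15 and 35.3 CPM without the non-endocrine clusters. The cluster led by Ppy, with 195 and 185 PP-class barcodes, gave 5.30 CPM (3.46 to 7.77) and 7.88 CPM (5.31 to 11.2). Of the 552 UMIs in the PP class of the library labelled TBL/RBKO 192 lay in 38 barcodes of the main δ cluster, at 229 CPM, and 282 in 93 barcodes of a one-library cluster, at 51.1 CPM. In the α class it stood at 3.68 and 9.36 CPM (log2 ratio 1.35, 0.98 to 1.73), and thinned barcodes with a UMI made up 1.43% and 1.59%. A cluster led by Sst that held 71 and 39 α-class barcodes gave 21.3 and 65.1 CPM. Under the narrower range of detected genes that the study applied, the α-class log2 ratio was −2.30. In the β class the level ran with low insulin in the library labelled TBL/RBKO, at 38.1, 24.6 and 8.36 CPM from the lowest to the highest insulin band, against 6.59, 19.2 and 3.20 CPM in the wildtype library. In the 3 shared clusters with the most wildtype β-class barcodes it was low in both libraries, from 1.10 to 2.22 CPM in the wildtype one and from 4.73 to 4.81 CPM, with 6 or 7 UMIs each, in the other. It was also uneven among the 3 one-library clusters, at 47.6 CPM in one and at 7.61 and 7.75 CPM in the others. With the barcodes of highest doublet score left out the log2 ratio was 2.30 in the β class, 1.36 in the δ class and 0.71 in the α class.

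The other transmembrane collagen with many UMIs, Col13a1, was mainly endothelial-like, at 542 and 331 CPM (1127 and 356 UMIs). It stood at 2.46 and 1.38 CPM in the β class, of which 0.179 and 0.249 CPM remained without the non-endocrine clusters.

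In the α class 35 of the 55 genes had at least 30 UMIs, of which 13 were called higher and 2, Lama4 and Col13a1, lower, beside 2.41% higher and 1.34% lower of all 13246 features. The median log2 ratio was 0.31 over the 35 genes and 0.02 over all features. Without the non-endocrine clusters, 0.666% and 0.670% of the class, 2 of 25 remained called higher, Col8a1 and Col25a1, and 1 lower, Col6a3, with 19 and 11 UMIs, beside 2.11% and 0.645% of all features in the same barcodes. Col8a1, a short-chain collagen of vessel walls and corneal membranes, stood at 2.53 CPM (55 UMIs) and 13.0 CPM (348 UMIs), a log2 ratio of 2.36 (1.95 to 2.80). Thinned barcodes with a Col8a1 UMI made up 2.02% (1.30 to 2.99) and 4.42% (3.40 to 5.64). None of 72 and 63 macrophage-like barcodes carried it, which allows up to 4.99% and 5.69%, so they cannot set a background for these shares. Its level was 1.38 and 1.39 CPM in one of the 2 largest α-class clusters, 2.16 and 7.09 CPM in the other and 8.84 and 26.6 CPM in the cluster that held 60 and 344 α-class barcodes. With all α-class barcodes kept it stood at 2.68 and 13.1 CPM (2.29), and 17 barcodes held 57.0% of its UMIs in the library labelled TBL/RBKO. The leading genes of the class differed little between libraries, with Col26a1, a secreted collagen with an EMI domain, at 36.5 and 34.6 CPM, Col27a1 at 21 and 20.9 CPM and Lamc1 at 34.3 and 41.9 CPM.

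The δ class gave 17 genes with at least 30 UMIs, 4 called higher (Col25a1, Col19a1, Col3a1 and Col18a1) and 2 lower (Col9a2 and Lama2), beside 1.86% and 1.04% of all 11788 features. The medians were 0.11 and −0.01. Only Col25a1 of the 6 had 100 UMIs or more. Without the non-endocrine clusters 3 of 16 were called higher and 2 lower, beside 1.59% and 0.930% of all features. Col19a1, a fibril-associated collagen, then gave 8 and 60 UMIs, Col9a2 35 and 32 UMIs, which are 7.81 and 3.68 CPM, and Lama2 25 and 12 UMIs.

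In the PP class 29 genes had enough UMIs, with 18 called higher and 0 lower, beside 6.29% and 2.57% of 12368 features, and medians of 1.57 and −0.02. Here 4 of the 503 barcodes of the library labelled TBL/RBKO decided the count. They belonged to the stromal-like cluster and held 510 of the 519 Col1a1 UMIs and 244 of the 252 Col3a1 UMIs of the class, and the wildtype class held none of either, so that Col1a1 was at least 76.3-fold and Col3a1 at least 37.1-fold higher against a floor of 3 UMIs in the library. Without the non-endocrine clusters 6 of 19 genes were called higher and 1, Col1a2, lower, at 7.01 and 3.47 CPM, beside 5.48% and 2.74% of all features in the same barcodes.

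The fibrillar collagens of the β and α classes followed the same pattern. Col1a1, the α1 chain of collagen I, gave 33 UMIs (0.387 CPM) and 649 UMIs (9.86 CPM) in the β class, a log2 ratio of 4.67 (4.16 to 5.22), and Col1a2, the α2 chain, 0.927 and 8.99 CPM (3.28). Col3a1 stood at 0.516 and 6.21 CPM (log2 ratio 3.59), Col5a1 at 0.106 and 1.56 CPM (3.89), Col5a2 at 0.587 and 3.95 CPM (2.75) and Col5a3 at 0.493 and 1.81 CPM (1.87). Of the 649 Col1a1 UMIs 529 lay in barcodes of the stromal-like and other non-endocrine clusters, and the 14 barcodes with the most held 94.0% of them.

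In the α class the same genes stood at 2.91 and 11.8 CPM (Col1a1), 6.99 and 17.3 CPM (Col1a2), 1.73 and 8.96 CPM (Col3a1) and 1.32 and 7.04 CPM (Col5a2), and 303 of 319 Col1a1 UMIs of the library labelled TBL/RBKO lay in non-endocrine clusters. Markers of stromal cells moved with these values: the 10 markers summed to 64.2 and 102 CPM in the β class, 26.5 and 54.0 CPM in the α class, 2.22 and 19.5 CPM in the δ class and 3.15 and 101 CPM in the PP class. Mgp made up most of the β- and α-class sums, with 58.0 and 89.0 CPM in the β class, which endothelial-like cells also carried, at 8119 and 5062 CPM. The 6 fibroblast markers summed to 2.18 and 11.0 CPM in the β class, 1.68 and 13.0 CPM in the α class, 0 and 10.5 CPM in the δ class and 0.286 and 40.8 CPM in the PP class. The 7 mural markers summed to 6.27 and 6.74 CPM in the β class and 5.72 and 5.68 CPM in the α class. All 10 stromal markers were above 0 in the β class of both libraries, and Pdgfra was at 0 in the wildtype α and PP classes and in the δ class of both. The 8 endothelial markers summed to 63 and 34.2 CPM in the β class and to 58.9 and 19.5 CPM in the α class. The part of these markers in the collagen differences was not tested beyond leaving barcodes out.

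What remained in endocrine clusters was small but not even. Without the non-endocrine clusters the β class held 9 and 120 Col1a1 UMIs, 7 and 117 Col3a1 UMIs and 44 and 138 Col1a2 UMIs, which is 0.107 and 1.87 CPM, 0.0836 and 1.82 CPM and 0.526 and 2.15 CPM. In the band of 3000 or more insulin UMIs per 10000 lay 8 and 93, 6 and 95, and 28 and 91 of them. The band held 2587 and 545 barcodes. Before thinning, 9 of 2928 and 43 of 1360 barcodes of the class carried a Col1a1 UMI. Thinned barcodes with a Col1a1 UMI made up 0.0726% (0.00879 to 0.262) and 0.684% (0.313 to 1.30) of the class. Of macrophage-like barcodes 0 of 72 and 1 of 63 carried a Col1a1 UMI, with intervals up to 4.99% and 8.53%. These are too few barcodes to set a background for shares under 1%. Col1a2 was not concentrated in the α class in the same way, at 6.39 and 5.75 CPM without the non-endocrine clusters, beside 7 and 16 Col1a1 UMIs, so that 0.0504 (0.0199 to 0.107) and 0.104 (0.0579 to 0.174) Col1a1 UMIs came per Col1a2 UMI. In stromal-like cells the ratio was 1.11 and 1.16.

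The remaining genes called higher in the β class with at least 100 UMIs were all at low levels. Col15a1 and Col18a1, the multiplexins of basement membrane zones, stood at 1.33 and 4.37 CPM and at 1.49 and 3.36 CPM, Col6a1 at 0.528 and 1.82 CPM, Col6a2 at 0.340 and 1.55 CPM and Col12a1, a fibril-associated collagen, at 0.352 and 1.12 CPM. All 5 dropped under 1 CPM in both libraries without the non-endocrine clusters. Col15a1, Col6a1, Col6a2 and Col12a1 were still called higher there, and Col18a1 was not. Col8a1 at 1.16 and 2.84 CPM, Col8a2 at 0.469 and 0.957 CPM and Col11a2, a minor fibrillar chain, at 1.28 and 2.76 CPM kept 152, 61 and 178 UMIs in the library labelled TBL/RBKO. Their log2 ratios without those clusters were 1.03, 0.99 and 1.09, so that Col8a2 was no longer called. Genes with many UMIs that were not called included Lamc1 (23.4 and 20.1 CPM, log2 ratio −0.22) and Col20a1 (5.73 and 6.20 CPM, 0.11).

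The non-hormone class had 37 genes with at least 30 UMIs, 10 called higher and 8 lower, beside 17.4% and 7.07% of 12823 features and medians of 0.56 and 0.10. The cell types of the class differed between libraries, with 21 stromal-like and 42 endothelial-like of 105 wildtype barcodes against 123 and 46 of 542. The genes called lower included Col13a1 (296 and 27.8 CPM), Lama4 (254 and 46.0 CPM) and Lamb1 (305 and 69.2 CPM).

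Within stromal-like cells 29 genes had enough UMIs, and 3 were counted as higher (Lamc3, Col28a1 and Col23a1) and 0 lower, beside 13.4% and 2.13% of 10562 features. The medians were 0.17 and 0.08. Col1a1 stood at 1699 and 1734 CPM, a log2 ratio of 0.03 (−0.05 to 0.11), Col1a2 at 1534 and 1498 CPM, Col3a1 at 1217 and 1178 CPM and Col5a2 at 716 and 729 CPM. Col8a1 stood at 190 and 123 CPM and Lama2 at 78.3 and 109 CPM. Lamc3 and Col23a1, named after their values were seen, gave 3 and 92 UMIs (log2 ratio 2.26, 0.67 to 4.56) and 0 and 85 UMIs, the last at least 4.42-fold higher against a floor of 3 UMIs. Col28a1 gave 0 and 34 UMIs, at least 1.77-fold higher, a bound under 2-fold, so that its place among the higher genes rests on a wildtype count of 0.

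Within endothelial-like cells 22 genes had enough UMIs, 3 called higher (Col1a1, Col3a1 and Col1a2) and 1 lower (Col4a5), beside 2.47% and 3.33% of 9290 features, with medians of −0.24 and −0.08. The basement membrane genes lay below the wildtype level by less than 2-fold, Lama4 with a log2 ratio of −0.89 (−1.10 to −0.68), Lamc1 with −0.66, Lamb1 with −0.46 and Col4a1 with −0.42. Col1a1 gave 1 and 84 UMIs, a log2 ratio of 7.34 (4.83 to 12.66), and the fibroblast marker Dcn gave 0 and 105 UMIs in the same barcodes. Its part in the Col1a1 count was not tested. Col15a1 and Col18a1 differed little, at 322 and 337 CPM and at 263 and 255 CPM. The ductal-like cluster, nearly all of the library labelled TBL/RBKO, had Col27a1 at 156 CPM, and its 95 Lamb3 UMIs gave 56.3 CPM. Lamb3 stood higher in the B-cell-like cluster, which held barcodes of that library only, at 80.6 CPM (67.4 to 95.7) from 131 UMIs.

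Genes that work with collagens and laminins were counted from 4 lists. In the β class, where 7.11% of all features were higher and 5.90% lower with a median log2 ratio of −0.17, 12 of 25 genes of basement membrane partners and other matrix with enough UMIs were called higher and 2 lower, with a median log2 ratio of 0.80, and of collagen processing enzymes and chaperones 7 of 25 were higher and 0 lower, with a median of 0.37. Of the cell-surface receptors 7 of 24 were higher and 2 lower (median 0.01), and of remodelling enzymes and their inhibitors 3 of 19 higher and 2 lower (median −0.11). Once the non-endocrine clusters were left out the matrix list had 7 higher and 1 lower of 18, and Fn1, Vtn, Fbln1, Fbln2, Lum and Postn were no longer among the genes called. Of these only Fbln1 still had enough UMIs, at a log2 ratio of −0.56, and the others had too few to be called either way. The other lists then had 4 and 0 of 25, 6 and 1 of 23 and 3 and 0 of 15 in the same order, with medians of 0.37, 0.35, 0.00 and 0.19 for the 4 lists beside −0.16 over all features.

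In the α class, beside 2.41% and 1.34% of all features, the counts were 5 higher and 1 lower of 19, 3 and 0 of 23, 1 and 1 of 22 and 2 and 0 of 15 for the lists in the same order. With those clusters left out they were 1 and 0 of 13, 1 and 2 of 22, 2 and 0 of 21 and 1 and 0 of 14. In the PP class, beside 6.29% and 2.57%, they were 11 and 0 of 19, 7 and 0 of 23, 6 and 0 of 18 and 6 and 1 of 16. Without those clusters, and so without the 4 stromal-like barcodes, they were 2 and 1 of 9, 3 and 0 of 21, 5 and 0 of 17 and 2 and 1 of 13.

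Among genes of these lists with at least 100 UMIs, the lowest ratios in the β class with all barcodes kept belonged to Cd36, a receptor for collagen and fatty acids (17.7 and 3.07 CPM), Sdc3, a syndecan (11.7 and 2.10 CPM), Matn2, a filament-forming matrilin (12.7 and 3.93 CPM), Mmp12, the macrophage elastase (3.03 and 0.987 CPM), and Timp2, a metalloproteinase inhibitor (15.7 and 8.35 CPM). The highest belonged to Tnc, which encodes tenascin-C (0.188 and 4.30 CPM), Itgb3, the integrin β3 chain (0.622 and 8.14 CPM), Fn1, fibronectin (0.188 and 1.85 CPM), Timp1, another metalloproteinase inhibitor (1.19 and 10.6 CPM), and Dcn, decorin (0.810 and 5.53 CPM). Some of these differences lay in the non-endocrine clusters. Without them Cd36 stood at 0.621 and 0.592 CPM, a log2 ratio of −0.07 (−0.71 to 0.56), and Mmp12 gave 4 and 8 UMIs, too few to be called. Fn1 gave 9 and 20 UMIs, and Tnc was 6.53-fold higher, from 5 and 25 UMIs. Macrophage markers had summed to 166 and 38.6 CPM in the β class with all barcodes.

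The other differences remained in endocrine clusters. Without the non-endocrine barcodes Sdc3 stood at 11.0 and 1.45 CPM, Matn2 at 12.9 and 3.79 CPM, Timp2 at 13.5 and 6.75 CPM, Itgb3 at 0.394 and 7.76 CPM and Timp1 at 0.597 and 3.88 CPM. Dcn, one of the stromal markers, stood at 0.0597 and 1.64 CPM, from 5 and 105 UMIs.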

How the data were processed

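Single-cell counts of 2 libraries, 1 per group, were analysed. The deposited matrices hold whole-number UMI counts per gene and barcode, made by the authors with Cell Ranger 7.1.0, and the processing notes of the submitters name the builds GRCm39 and mm39. The members and lists were chosen with earlier results of these data known. Barcodes with over 1000 genes and under 10% mitochondrial UMIs were kept, and classed by the largest of the insulin, Gcg, Sst and Ppy sums at 100 or more per 10000 UMIs. UMIs were summed per class and library, and given per 1000000 UMIs other than hormone and mitochondrial ones. The kept barcodes summed to 232131266 and 177400181 UMIs. Levels have Poisson intervals, ratios of libraries and chains have Clopper-Pearson intervals on the conditional binomial, and shares of barcodes have Clopper-Pearson intervals (Python 3.11.15, scipy 1.17.1). Interval coverage and calls were tested on simulated Poisson counts. These held no variation among cells, animals or libraries, so the test covers counting error only. Clusters were made with scanpy 1.11.5 (2000 variable genes, 30 components, 15 neighbours, Leiden resolution 1) and named, by a rule set after seeing the clusters, where most barcodes were non-hormone, at least 3 markers reached 50 CPM and 1 stood among the 10 leading genes. Doublets were kept in the main values. The automatic Scrublet threshold marked 84 and 1 barcodes, so the alternative left out the highest scores at 0.8% per 1000 barcodes. Named members had at least 100 UMIs over both libraries in 1 hormone class or non-endocrine cluster, with full values for the highest of each role and for those past 2-fold. Of the matrix lists, the 5 highest and 5 lowest ratios with at least 100 UMIs were named. The alternatives were another denominator, the filter of the study, other minimum counts and class rules, centring on the median and leaving out doublets, marker-bearing barcodes or clusters. Positions came from GENCODE M39. A gene of the lists is counted but not reported here.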

Additional observations from a re-analysis of the deposited data

Results flagged for a closer look

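Col6a3 was flagged because its difference between libraries pointed in opposite directions in different hormone classes. The log2 ratio, library labelled TBL/RBKO over wildtype, was −2.18 in the β class, 1.09 in the α class and 2.86 in the PP class. The difference between the classes was not tested. The α and PP values rest on barcodes of the stromal-like cluster: of the 132 Col6a3 UMIs in the PP class of the library labelled TBL/RBKO 131 lay in that cluster, and without the non-endocrine clusters 1 remained beside 8 in the wildtype class, while the α-class ratio was −1.09, from 19 and 11 UMIs.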

How the results depend on the processing

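With 1 library per group there is no measure of variation among animals, and the conditions cannot be told apart from pooling, library or dissociation. No paired analysis was possible because each group has 1 library. Depth limits the δ and PP classes most, where 38 and 26 of the 55 genes had under 30 UMIs. Leaving out the non-endocrine clusters, the one-library clusters or both was chosen after seeing the data. Of 263 values of the 26 called ratios of named genes under alternatives, 149 stayed within the counting interval of the reported ratio, 91 moved past it in the same direction and 23 changed sign. Col6a6 in the β class ranged from −1.74 to −0.85 on the log2 scale and Col25a1 from 1.72 to 2.68, over all alternatives.

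Counts of genes called that changed by more than 1.5 times follow, and the cause was not tested unless the setting itself keeps fewer genes or barcodes. Among these settings, shares of all features are given above only for leaving out the non-endocrine clusters. The other counts have no such background beside them, so they do not tell collagens and laminins from all features. For the β class (16 higher, 2 lower), the filter of the study (over 2500 and under 6000 genes) gave 6 higher and 11 lower, leaving out the highest doublet scores 7 and 7, and leaving out one-library clusters 28 and 1, and leaving out both these and the non-endocrine clusters 14 and 0. Of the β-class genes 5 were lower with a minimum of 1 UMI, 4 without barcodes that bear stromal or endothelial markers and 5 without the non-endocrine clusters. For the α class (13 and 2), the filter of the study gave 5 higher, a minimum of 100 UMIs 8 and 0, a minimum of 1 UMI 22 and 5, a hormone minimum of 1000 per 10000 gave 2 and 0, leaving out marker-bearing barcodes 6 and 0, and leaving out non-endocrine clusters 2 and 1. In the δ class (4 and 2), the filter of the study gave 0 lower, a minimum of 100 UMIs 1 and 0, of 1 UMI 23 and 9, and the higher hormone minimum 2 and 0. In the PP class (18 and 0), the filter of the study gave 1 higher, doublet scores 9, a minimum of 100 UMIs 10, a minimum of 1 UMI 32 and 1, the higher hormone minimum 2 and 1, and leaving out marker-bearing barcodes or non-endocrine clusters 6 and 1 each. In the non-hormone class (10 and 8), a minimum of 100 UMIs gave 6 higher, a minimum of 1 UMI 18, and the filter of the study 3 lower.

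Some log2 ratios changed sign. The filter of the study gave, in the β class, −0.97 for Col3a1, −1.79 for Col5a2, −3.26 for Col15a1, −0.93 for Col1a2, −0.99 for Col6a2, −1.17 for Col6a1, −0.09 for Col1a1 and −0.26 for Col8a1. Leaving out doublet scores gave −0.57 for Col15a1, −0.39 for Col6a1 and −0.47 for Col5a3, marker-bearing barcodes −0.37 for Col5a3, one-library clusters 0.05 for Col6a3, and both kinds of clusters −0.45 for Col8a2. The higher hormone minimum gave, in the α class, 0.00 for Col3a1, −0.09 for Col5a2, −0.03 for Col15a1 and −0.07 for Col1a1. Leaving out marker-bearing barcodes gave −0.75 for Col6a3 and −0.11 for Col1a2, non-endocrine clusters −1.09 and −0.15, and the filter of the study −2.30 for Col25a1.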
